A study of Homo sapiens with 21 samples.

Results

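The 10 genes described here encode matrix proteins, other than collagens and laminins, that are known as ligands of integrins or as their companions in the matrix: FN1, VTN, SPP1, TNC, THBS1, THBS2, POSTN, SPARC, VCAN and FBN1. They were taken by gene symbol from the 60728 gene rows of the expression table, and each symbol gave 1 row. The data are RNA-Seq of the established human neuroblastoma cell line SK-N-BE(2), in 21 libraries taken 72 h after lentiviral transduction. Every culture was transduced, and the controls carried a non-silencing construct. The study asked which genes depend on the BAF chromatin remodeller, in which ARID1A and ARID1B are alternative subunits.

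The 7 conditions hold 3 libraries each. Beside Control, the label shARID1A covers the conditions shARID1A.2 and shARID1A.4, the label shARID1B covers shARID1B.2 with shARID1B.3, and the label shARID1A/B covers shARID1A/B.2.3 as well as shARID1A/B.4.2, each being an shRNA or a combination of shRNAs. The silenced genes went against these labels in part, so the conditions are called throughout "the libraries labelled" with their name, and no direction is drawn from a label. In the libraries labelled shARID1A.2 and shARID1A.4 both targets were low, with ARID1A at 34.0% and 35.5% of the Control mean and ARID1B at 38.7% and 53.5%. In those labelled shARID1B.2 and shARID1B.3 it was ARID1A that was low, at 30.4% and 39.3%, while ARID1B stood at 86.3% and 105.1%. In those labelled shARID1A/B.2.3 and shARID1A/B.4.2 it was ARID1B that was low, at 44.8% and 32.9%, while ARID1A stood at 89.7% and 86.2%. A target is counted as low here at 53.5% of the Control mean or less. The other target moved as well, by log2 changes of -0.21 and 0.07 for ARID1B in shARID1B.2 and shARID1B.3. For ARID1A these were -0.16 and -0.21 in shARID1A/B.2.3 and shARID1A/B.4.2, each with an adjusted p under 0.05 (limma). The labels do not say whether the 3 libraries of a condition came from separate cultures, so the p-values measure the spread between these libraries, which may be technical.

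Cells hold on to the matrix through integrins, paired receptors whose outer part binds a matrix protein and whose inner part is tied to the actin cytoskeleton. Fibronectin, vitronectin and osteopontin carry the short motif arginine-glycine-aspartate, which several integrins with the alpha-v, alpha-5 or alpha-8 chain recognise. Tenascin C, the thrombospondins, periostin and SPARC are matricellular proteins, which modulate adhesion more than they build the matrix, and versican and fibrillin-1 are large structural components. In neuroblastoma, matrix genes of this kind are commonly used as marks of the mesenchymal cell state, as opposed to the adrenergic one.

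The coding bases of the arginine-glycine-aspartate motif are shown because they separate the members into those with and those without it. In the longest coding transcript of each gene in GENCODE release 29 (GRCh38), 3 successive in-frame codons for arginine, glycine and aspartate were found at 1 site in 7 of the 10 genes. The stretches below run 5′ to 3′ along the coding strand, with the 9 bases of the motif in capitals and 18 coding bases on each side.
FN1: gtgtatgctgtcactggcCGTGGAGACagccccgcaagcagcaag
VTN: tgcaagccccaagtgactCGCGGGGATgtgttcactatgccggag
SPP1: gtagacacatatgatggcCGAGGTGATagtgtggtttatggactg
TNC: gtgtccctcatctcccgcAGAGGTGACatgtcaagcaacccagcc
THBS1: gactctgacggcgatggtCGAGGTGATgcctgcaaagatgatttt
THBS2: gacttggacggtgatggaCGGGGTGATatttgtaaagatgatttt
FBN1: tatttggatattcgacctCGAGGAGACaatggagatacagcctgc

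The capitals of FN1 lie in exon 30 at chr2:215384063-215384071 on the minus strand, those of VTN in exon 3 at chr17:28369838-28369846 on the minus strand, and those of SPP1 in exon 6 at chr4:87981733-87981741 on the plus strand. Those of TNC lie in exon 7 at chr9:115077980-115077988 on the minus strand, and those of FBN1 in exon 38 at chr15:48468056-48468064 on the minus strand. In THBS1 they lie in exon 18 at chr15:39593008-39593016 on the plus strand and in THBS2 in exon 18 at chr6:169223459-169223467 on the minus strand. The thrombospondin stretches shared 36 of 45 bases, against 13 to 21 for every other pair of the 7. SPP1 and THBS1 carried the same 9 capitals, with different flanks. No such run of codons was found in the transcripts used for POSTN, SPARC and VCAN. A codon match is a description of the transcript and says nothing of binding.

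The members covered a wide range of levels in Control. Levels between genes are compared as the deposited value, a number of reads divided by the size factor of the library, per kilobase (kb) of annotated exon. SPARC stood at 3132 ± 103 per kb (SD, n = 3) and VCAN at 2890 ± 45.1 per kb, and these were the highest members, with ranges that did not overlap. FBN1 stood at 374 ± 0.613 per kb, FN1 at 304 ± 2.97 per kb and TNC at 153 ± 2.5 per kb. The thrombospondins followed, with THBS1 at 93.3 ± 6.21 per kb above THBS2 at 20.8 ± 2.42 per kb. VTN, a protein known mainly from liver and plasma, stood at 9.99 ± 2.96 per kb, while POSTN at 0.732 ± 0.508 per kb and SPP1 at 0.646 ± 0.318 per kb lay at the bottom with overlapping ranges. Neighbours in this order other than POSTN and SPP1 did not overlap. The order depends on the length used, the union of all annotated exons (17315 bases for FN1 and 16057 for FBN1). An order by transcript length was not made. SPARC was the highest member per kb in all 7 conditions, and VCAN was second except in the libraries labelled shARID1A/B.4.2, where VCAN at 386 ± 2.29 per kb lay below FBN1 at 452 ± 5.02 per kb.

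The libraries held 27954334 to 41077638 reads, and 18584 genes passed a filter on low reads and were tested with limma on log2 of the value plus 1, with p-values adjusted over all of them and a gene called at an adjusted p under 0.05. All 10 members passed, SPP1 and POSTN through the silenced conditions, since each had under 10 reads in every Control library. Differences were very widespread in these data. Against Control, 76.1% of all genes were called in the libraries labelled shARID1A.2, 73.6% in shARID1A.4, 65.6% in shARID1B.2, 63.9% in shARID1B.3, 69.2% in shARID1A/B.2.3 and 71.2% in shARID1A/B.4.2. Of the 10 members, in the same order, 8, 8, 8, 8, 6 and 10 were called, which is near those shares. With at least 10 reads required in every library, which leaves out SPP1 and POSTN, 6, 7, 6, 7, 5 and 8 of 8 were called. Of the 14637 genes kept by that requirement, 12077, 11989, 10895, 10658, 11465 and 11585 were called. The counts and medians below include SPP1 and POSTN. Higher calls were 3 members in shARID1A.2 (37.9% of all genes), 2 in shARID1A.4 (37.0%), 4 in shARID1B.2 (31.6%), 2 in shARID1B.3 (31.9%), 1 in shARID1A/B.2.3 (35.2%) and 5 in shARID1A/B.4.2 (35.1%). Lower calls were 5 members in shARID1A.2 (38.2% of all genes), 6 in shARID1A.4 (36.6%), 4 in shARID1B.2 (34.0%), 6 in shARID1B.3 (32.0%), 5 in shARID1A/B.2.3 (34.0%) and 5 in shARID1A/B.4.2 (36.1%). The median log2 change of the members was -0.21, -0.86, -0.17, -0.41, -0.19 and -0.11, against 0.01 to 0.02 for all genes tested. Calls with a log2 change over 1 in size numbered 5, 4, 3, 3, 2 and 5 of 10, against 24.8%, 21.4%, 12.0%, 11.8%, 16.1% and 18.4% of all genes. SPP1 was among these calls in all 6 comparisons, and POSTN in shARID1A.2, shARID1B.2 and shARID1A/B.4.2. The distance from the shares of all genes thus rests in part on members admitted by the conditions in which they were high. The 6 comparisons share the Control libraries, so their values stand side by side and are not independent of each other.

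The scale of the libraries matters for small changes. Scaling to total reads moved the median change of all genes upward by 0.17 in shARID1A.2, 0.13 in shARID1B.2 and 0.18 in shARID1A/B.4.2, and upper-quartile scaling by 0.18, 0.12 and 0.16. The share of calls that were higher went from 49.8% to 61.2% in shARID1A.2, from 48.1% to 63.0% in shARID1B.2 and from 49.3% to 64.8% in shARID1A/B.4.2 under scaling to total reads, and to 61.8%, 61.2% and 63.0% under upper-quartile scaling. No call of a member against Control changed direction under any scaling.

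**Figure D1:**
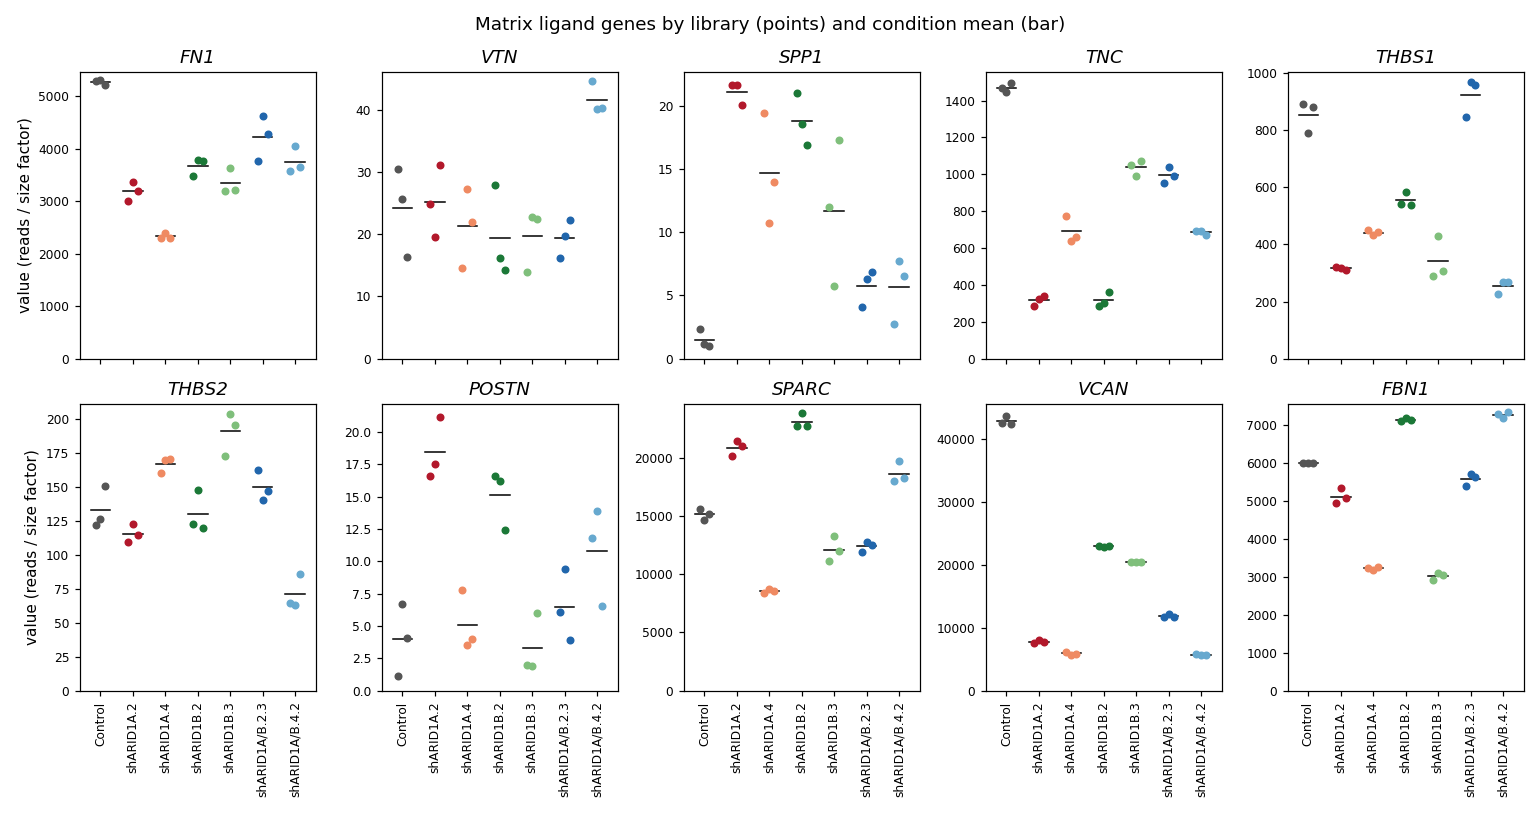
Deposited value of each gene by library (points) and the mean of the 3 libraries (bar) in the 7 conditions; each panel has its own linear axis from 0. VCAN, FN1 and TNC lie below Control in every silenced library, and SPP1 lies above it in every silenced library.

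VCAN encodes versican, a large chondroitin sulphate proteoglycan that binds hyaluronan and loosens the matrix around migrating cells (ENSG00000038427.16, chr5:83471465-83582303, plus strand). It fell furthest of the members in 4 of 6 comparisons, while TNC fell further in shARID1B.2 and THBS1 in shARID1B.3. The Control libraries stood at 42585, 43628 and 42381. Those labelled shARID1A.2 stood at 7622, 8004 and 7699, and those labelled shARID1A.4 at 6150, 5707 and 5884. The libraries with both targets low thus held 18.1% and 13.8% of the Control mean. Those labelled shARID1B.2 stood at 23039, 22809 and 22939, and those labelled shARID1B.3 at 20383, 20498 and 20514. With ARID1A low by itself, VCAN stayed near 53.5% and 47.7% of Control. Those labelled shARID1A/B.2.3 stood at 11626, 12186 and 11733, and those labelled shARID1A/B.4.2 at 5769, 5703 and 5721. With ARID1B low by itself, VCAN reached 27.6% and 13.4% of Control, the latter overlapping the range of shARID1A.4. All silenced libraries lay below Control, and the 12 libraries in which ARID1B was low lay below the 6 in which it was not. VCAN fell in all 6 comparisons, with log2 changes of -2.46 ± 0.02 in shARID1A.2 (SE, adjusted p = 7.09e-29, limma), -2.86 ± 0.02 in shARID1A.4 (adjusted p = 2.88e-30, limma) and -2.90 ± 0.02 in shARID1A/B.4.2 (adjusted p = 9.98e-30, limma). The log2 changes were -0.90, -1.07 and -1.86 in shARID1B.2, shARID1B.3 and shARID1A/B.2.3, each called.

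FN1 encodes fibronectin, the main ligand of integrin alpha-5 beta-1 and the scaffold on which much of the matrix is laid (ENSG00000115414.20, chr2:215360440-215436172, minus strand). It was lower in every silenced condition, by less than VCAN. Control stood at 5281, 5313 and 5212. The libraries labelled shARID1A.2 stood at 3001, 3365 and 3194 and those labelled shARID1A.4 at 2293, 2389 and 2300, the lowest of all. Those labelled shARID1B.2 stood at 3472, 3775 and 3761 and those labelled shARID1B.3 at 3200, 3631 and 3216. The values of shARID1A/B.2.3 were 3768, 4620 and 4274 and those of shARID1A/B.4.2 were 3566, 4048 and 3649. No silenced library reached the Control range, while the 5 conditions other than shARID1A.4 formed a chain in which each overlapped its neighbour. The log2 change was largest in shARID1A.4 at -1.18 ± 0.06 (SE, adjusted p = 3.45e-15, limma) and smallest in shARID1A/B.2.3 at -0.32 ± 0.06 (adjusted p = 3.07e-05, limma), with -0.73, -0.52, -0.66 and -0.49 in shARID1A.2, shARID1B.2, shARID1B.3 and shARID1A/B.4.2. The last of these was -0.30 with scaling to total reads and still called.

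TNC encodes tenascin C, a large glycoprotein of embryonic and wound matrix that binds integrins alpha-9 beta-1 and alpha-v beta-3 (ENSG00000041982.16, chr9:115019578-115118257, minus strand). It fell in all 6 comparisons, with sizes that followed no label. Control stood at 1469, 1447 and 1495. The libraries labelled shARID1A.2 stood at 285, 324 and 339 and those labelled shARID1B.2 at 284, 301 and 362. These lowest conditions overlapped each other although they carry different labels, at 21.5% of the Control mean each. Those labelled shARID1A.4 stood at 776, 640 and 659 and those labelled shARID1A/B.4.2 at 691, 690 and 672. The values of shARID1B.3 were 1052, 992 and 1072 and those of shARID1A/B.2.3 were 955, 1041 and 990. The conditions thus fell into 3 pairs, each overlapping within and apart from the next. The log2 changes were -2.22 ± 0.08 in shARID1A.2 (SE, adjusted p = 1.3e-18, limma), -2.22 in shARID1B.2, -1.09 in shARID1A.4, -1.10 in shARID1A/B.4.2, -0.56 in shARID1A/B.2.3 and -0.50 in shARID1B.3.

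THBS1 and THBS2 encode trimeric thrombospondins, which bind CD47, CD36 and integrins and are known inhibitors of vessel growth. THBS1 (ENSG00000137801.11, chr15:39581079-39599466, plus strand) fell in 5 of 6 comparisons. Control stood at 891, 789 and 883. The libraries labelled shARID1A.2 stood at 322, 318 and 310, those labelled shARID1A.4 at 450, 434 and 442, and those labelled shARID1B.2 at 542, 585 and 538. Each of these conditions was narrow and apart from the other two. Those labelled shARID1B.3 stood at 291, 430 and 306, a range that spanned shARID1A.2, and those labelled shARID1A/B.4.2, the lowest, at 225, 269.6 and 268. In shARID1A/B.2.3 the values were 845, 968 and 959 and overlapped Control. The log2 change was -1.75 ± 0.10 in shARID1A/B.4.2 (SE, adjusted p = 4.92e-14, limma), -1.43 in shARID1A.2, -1.34 in shARID1B.3, -0.95 in shARID1A.4 and -0.62 in shARID1B.2, each called, and 0.11 in shARID1A/B.2.3 (adjusted p = 0.321, limma). FSIP1, on the opposite strand, shares 448 exon bases with THBS1 and stood at 6.65 to 24.6, far under THBS1.

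THBS2 (ENSG00000186340.15, chr6:169215780-169254044, minus strand) differed from its paralogue in part, both being lower in shARID1A/B.4.2 while THBS2 was higher in 2 conditions in which THBS1 was lower. Control stood at 122, 126 and 151. The libraries labelled shARID1A.4 stood at 160, 170 and 171 and those labelled shARID1B.3 at 173, 204 and 196, all above Control. Those labelled shARID1A/B.4.2 stood at 64.7, 63.3 and 86.2, all below it. The remaining conditions overlapped Control, at 110 to 123 in shARID1A.2, 120 to 148 in shARID1B.2 and 141 to 163 in shARID1A/B.2.3. THBS2 rose by 0.33 ± 0.12 in shARID1A.4 (SE, adjusted p = 0.0165, limma) and by 0.52 ± 0.12 in shARID1B.3 (adjusted p = 0.000534, limma) and fell by 0.90 in shARID1A/B.4.2 (adjusted p = 3.43e-07, limma). The call in shARID1A.4 was lost without Control library 1, at 0.27 (adjusted p = 0.0743, limma), or without Control library 2, at 0.30 (adjusted p = 0.0556, limma). BX322234.1, an antisense gene that shares no exon base with THBS2, stood at 23.9 to 126, within reach of THBS2.

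SPARC encodes a collagen-binding matricellular protein that is usually described as anti-adhesive (ENSG00000113140.11, chr5:151661096-151687165, minus strand). It was called in all 6 comparisons, higher in 3 and lower in 3, with each label holding a condition of each kind. Control stood at 15616, 14621 and 15154. The libraries labelled shARID1A.2 stood at 20118, 21417 and 20998 and those labelled shARID1A.4 at 8421, 8686 and 8554. Those labelled shARID1B.2 stood at 22709, 23827 and 22694 and those labelled shARID1B.3 at 11108, 13238 and 11970. Under each of these labels the first condition lay wholly above Control and the second wholly below it. The values of shARID1A/B.2.3 were 11869, 12755 and 12527, below Control, and those of shARID1A/B.4.2 were 17971, 19691 and 18210, above it. SPARC rose by 0.46 ± 0.04, 0.61 ± 0.04 and 0.30 ± 0.04 on the log2 scale in shARID1A.2, shARID1B.2 and shARID1A/B.4.2 (SE, adjusted p = 1.07e-09, 1.03e-11 and 1.81e-06, limma). It fell in shARID1A.4, shARID1B.3 and shARID1A/B.2.3, with log2 changes of -0.82, -0.32 and -0.29 (adjusted p = 1.53e-14, 6.84e-07 and 3.02e-06, limma). The rise in shARID1A/B.4.2 was 0.49 with scaling to total reads and 0.46 with upper-quartile scaling.

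The summed value of the line's own markers, most of it from MYCN, moved opposite to SPARC. The list of MYCN, PHOX2A, HAND2, GATA3, ISL1 and DBH, usual markers of adrenergic neuroblastoma, was present in full in all conditions. Its summed value was 162201 to 166465 in Control. It was lower in the libraries labelled shARID1A.2 (118603 to 124400), shARID1B.2 (112956 to 118063) and shARID1A/B.4.2 (112421 to 115036). It was higher in shARID1A.4 (448219 to 465619), shARID1B.3 (189420 to 209239) and shARID1A/B.2.3 (252358 to 258003). MYCN, the amplified oncogene of this line, made up most of the sum and was called higher in 3 and lower in 3 comparisons. The other markers did not follow it as a group, since HAND2 and ISL1 were lower and GATA3 higher in all 6 comparisons. DBH moved in the direction of MYCN except in shARID1B.3, where DBH changed by -1.71 and MYCN by 0.36. PHOX2A was called higher in 3 comparisons and lower in 2, with log2 changes of -0.28 to 0.25. The part of these markers in the differences of SPARC was not tested.

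FBN1 encodes fibrillin-1, the backbone of the microfibrils that carry elastin and store TGF-beta (ENSG00000166147.14, chr15:48408306-48645849, minus strand). Its libraries agreed closely within each condition. Control stood at 5990, 6004 and 6009. The libraries labelled shARID1A.4 stood at 3235, 3175 and 3247 and those labelled shARID1B.3 at 2905, 3107 and 3046. Both lay near 53.6% and 50.3% of the Control mean, although both targets were low in the former and ARID1A by itself in the latter. Those labelled shARID1B.2 stood at 7094, 7181 and 7139 and those labelled shARID1A/B.4.2 at 7281, 7172 and 7329, all above Control. The values of shARID1A.2 were 4939, 5329 and 5074 and those of shARID1A/B.2.3 were 5390, 5719 and 5629, just below Control. FBN1 fell in shARID1A.4 and shARID1B.3, with log2 changes of -0.90 ± 0.03 and -0.99 ± 0.03 (SE, adjusted p = 1.71e-19 and 7.56e-20, limma) and rose by 0.25 and 0.27 in shARID1B.2 and shARID1A/B.4.2 (adjusted p = 1.99e-08 and 3.01e-09, limma). With scaling to total reads these rises were 0.39 and 0.46. The small changes of -0.23 in shARID1A.2 and -0.11 in shARID1A/B.2.3 were called, but the former became -0.06 (adjusted p = 0.0518, limma) with scaling to total reads and -0.05 (adjusted p = 0.109, limma) with upper-quartile scaling. The latter became -0.03 (adjusted p = 0.317, limma) with upper-quartile scaling.

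SPP1 encodes osteopontin, a secreted phosphoprotein that binds alpha-v beta-3 and CD44 (ENSG00000118785.14, chr4:87975650-87983426, plus strand). It was the member that rose in every comparison, from a Control level of 1 or 2 reads a library. Control stood at values of 2.35, 1.12 and 1.03. The libraries labelled shARID1A.2 stood at 21.6, 21.6 and 20.1 and those labelled shARID1A.4 at 19.4, 10.7 and 13.97. Those labelled shARID1B.2 stood at 21.01, 18.5 and 16.9 and those labelled shARID1B.3 at 11.9, 5.70 and 17.3. In all conditions with ARID1A low the values were thus above Control, with wide ranges in shARID1A.4 and shARID1B.3. The values of shARID1A/B.2.3 were 4.05, 6.25 and 6.81 and those of shARID1A/B.4.2 were 2.73, 7.72 and 6.56, also above Control. The Control libraries held 4 reads in all, so the ratios have wide counting intervals. The ratio to Control was 14.4 in shARID1A.2 (95% exact interval 5.35 to 54.4), 12.8 in shARID1B.2 (4.75 to 48.6), 10.2 in shARID1A.4 (3.70 to 39.0) and 8.03 in shARID1B.3 (2.89 to 30.99). It was 3.88 in shARID1A/B.2.3 (1.27 to 15.9) and 3.93 in shARID1A/B.4.2 (1.32 to 15.8). These intervals cover counting error alone. All 6 differences were called, the weakest in shARID1A/B.4.2 with a log2 change of 1.36 ± 0.39 (SE, adjusted p = 0.00315, limma). With a pseudocount of 5 the 6 log2 changes shrank from a range of 1.36 to 3.18 to one of 0.69 to 2.01 and remained called. SPP1 passed the filter through the conditions in which it was high. With no filter, over 35892 genes, all 6 differences were called as well, with adjusted p of 7.93e-07 to 0.0116 (limma).

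POSTN encodes periostin, a matricellular protein that binds alpha-v integrins and collagen (ENSG00000133110.15, chr13:37562583-37598844, minus strand). It too was near the floor of detection in Control, at 1.17, 6.72 and 4.11, from 11 reads in all. The libraries labelled shARID1A.2 stood at 16.6, 17.5 and 21.2 and those labelled shARID1B.2 at 16.6, 16.2 and 12.4, wholly above Control. Those labelled shARID1A/B.4.2 stood at 11.8, 13.9 and 6.56 and overlapped it. In shARID1A.4, shARID1B.3 and shARID1A/B.2.3 the values ran from 3.57 to 7.77, from 1.90 to 6.04 and from 3.89 to 9.38 and overlapped Control. The ratio of reads was 4.50 in shARID1A.2 (95% exact interval 2.34 to 9.54) and 3.71 in shARID1B.2 (1.90 to 7.93). POSTN rose by 2.13 ± 0.46 and 1.86 ± 0.46 on the log2 scale in these conditions (SE, adjusted p = 0.000193 and 0.00103, limma). In shARID1A/B.4.2 it was called at 1.36 (adjusted p = 0.0109, limma), and this call was lost without Control library 1, at 0.85 (adjusted p = 0.105, limma), or without library 2 of that condition, at 1.16 (adjusted p = 0.0524, limma). With a pseudocount of 5 the rise in shARID1B.2 was 1.2 and that in shARID1A/B.4.2 was 0.83, both still called. POSTN, too, passed the filter through the conditions in which it was high. With no filter the same 3 differences were called, with adjusted p of 0.000822, 0.00379 and 0.03 (limma).

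VTN encodes vitronectin, the adhesive protein of serum and a classical ligand of alpha-v beta-3 and alpha-v beta-5 (ENSG00000109072.14, chr17:28367276-28373091, minus strand). It was low and differed from Control in a single comparison. Control stood at 30.5, 25.7 and 16.4. The libraries labelled shARID1A/B.4.2 stood at 44.6, 40.2 and 40.3, above every other library. The other 15 silenced libraries ran from 13.9 to 31.2 and overlapped Control. VTN rose by 0.80 ± 0.29 in shARID1A/B.4.2 (SE, adjusted p = 0.0169, limma), which was 0.55 (adjusted p = 0.116, limma) without Control library 3. The log2 changes in the other comparisons lay between -0.32 and 0.07 with adjusted p of 0.35 to 0.824 (limma). The gene lies within SARM1, which runs on the opposite strand at 1587 to 2650 and shares no exon base with it, and the strand setting of the read counting is not given in the sources used here.

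**Figure D2:**
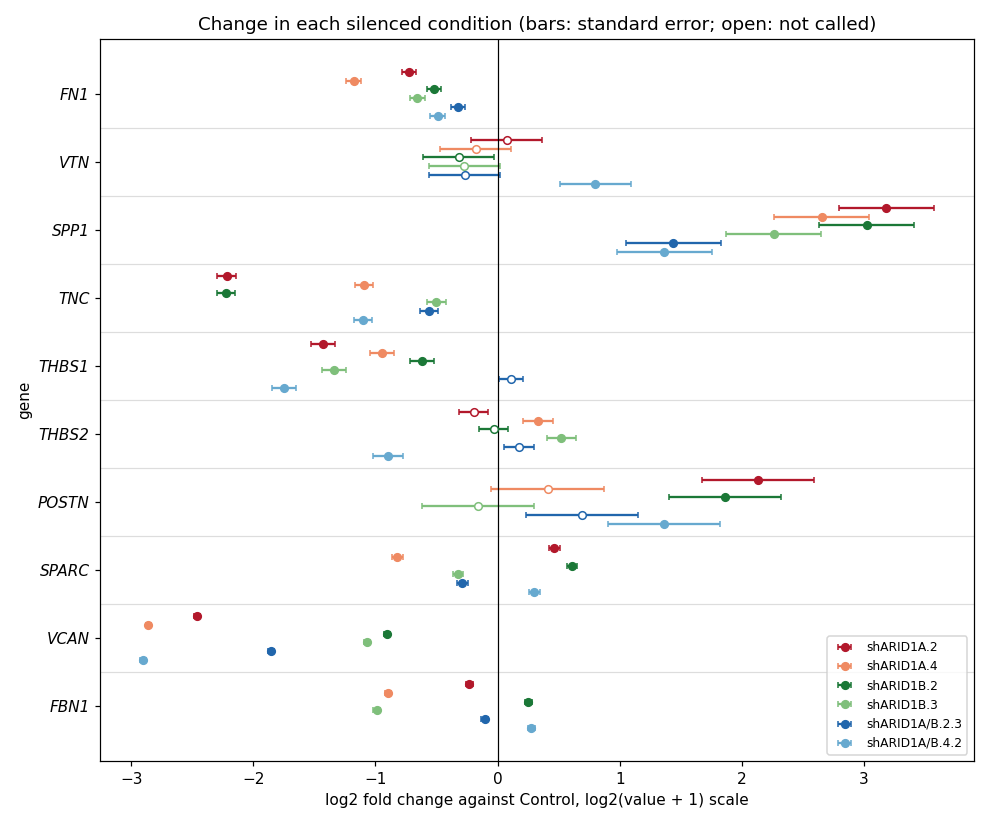
Log2 change of each gene against Control on the log2(value + 1) scale, with the standard error of the fit as bars, coloured by condition; filled points were called at an adjusted p under 0.05 and open points were not. VCAN, FN1 and TNC lie left of 0 throughout and SPP1 right of it, while SPARC, FBN1 and THBS2 lie on either side; the calls of FBN1 in shARID1A.2 and shARID1A/B.2.3 were lost with upper-quartile scaling.

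The labels were also compared directly, each as the mean of its 2 conditions, which leaves Control out. Between the libraries labelled shARID1A, with both targets low, and those labelled shARID1B, with ARID1A low, 67.3% of all genes were called, 34.6% higher and 32.8% lower, and 6 of the 10 members, all 6 lower in the former. VCAN differed most, by -1.68 ± 0.02 (SE, adjusted p = 2.76e-28, limma), followed by FN1 at -0.36, SPARC at -0.32, TNC at -0.29, THBS1 at -0.21 and FBN1 at -0.19. SPP1 differed by 0.28 ± 0.27 (adjusted p = 0.384, limma), and THBS2 by -0.18 (adjusted p = 0.067, limma). The difference of THBS1 was -0.12 without library 2 of shARID1B.3.

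Between shARID1A and shARID1A/B, where ARID1B was low in both and ARID1A in the former, 59.2% of all genes were called, 30.5% higher and 28.7% lower, and 8 members, 2 higher and 6 lower. SPP1 was higher in shARID1A by 1.52 ± 0.27 (SE, adjusted p = 4.04e-05, limma) and THBS2 by 0.43. SPP1 held 65 and 43 reads in shARID1A.2 and shARID1A.4, and 17 and 20 in shARID1A/B.2.3 and shARID1A/B.4.2. It passed the filter through conditions in which it was high, so its call here rests on libraries that admitted it. On the lower side stood TNC at -0.82, FBN1 at -0.65, FN1 at -0.54, THBS1 at -0.37, VCAN at -0.28 and SPARC at -0.19.

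Between shARID1A/B, with ARID1B low, and shARID1B, with ARID1A low, 70.2% of all genes were called, 35.1% higher and 35.0% lower, and 9 members, 5 higher and 4 lower. VCAN was at -1.39 ± 0.02 (SE, adjusted p = 5.57e-27, limma), SPP1 at -1.24 ± 0.27 (adjusted p = 0.0003, limma), THBS2 at -0.61 and SPARC at -0.14. The call of SPP1 again rests on libraries through which it passed the filter, with 59 and 38 reads in shARID1B.2 and shARID1B.3. On the higher side stood VTN at 0.56, TNC at 0.53, FBN1 at 0.46, FN1 at 0.18 and THBS1 at 0.16. The call of THBS1 (adjusted p = 0.0433, limma) was lost without 8 of the 12 libraries, each left out in turn, with values of 0.11 to 0.15, and was 0.25 without library 2 of shARID1B.3. Lost too was the call of VTN (adjusted p = 0.0183, limma), without library 3 of shARID1B.2, at 0.47, or library 1 of shARID1B.3, at 0.45. POSTN was not called in any of the label comparisons, with differences of 0.18 to 0.42 and standard errors of 0.32. The label comparisons share libraries with each other.

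The 2 conditions of a label differed from each other in about as large a share of genes as either did from Control. Between shARID1A.2 and shARID1A.4, 75.8% of all genes and 8 members were called; between shARID1B.2 and shARID1B.3, 66.0% and 7; between shARID1A/B.2.3 and shARID1A/B.4.2, 74.9% and 8. Scaling to total reads moved the share of these calls that were higher from 50.7% to 60.8%, from 49.96% to 60.8% and from 49.6% to 38.6%. SPARC was higher in shARID1A.2 than in shARID1A.4 by 1.28 ± 0.04 (SE, adjusted p = 1.54e-18, limma) and higher in shARID1B.2 than in shARID1B.3 by 0.93 ± 0.04 (adjusted p = 1.85e-15, limma). It was lower in shARID1A/B.2.3 than in shARID1A/B.4.2, at -0.59 ± 0.04 (adjusted p = 1.17e-11, limma). These 3 contrasts use no library in common, but they share the estimate of the spread, which is pooled over all libraries. The shRNA numbers recur between labels, so constructs may be shared, and the contrasts cannot be read as independent repeats. FBN1 differed in the same directions as SPARC, by 0.67, 1.24 and -0.38, and POSTN by 1.73 and 2.02, with -0.67 in the last contrast (adjusted p = 0.191, limma). POSTN held 56 and 47 reads in shARID1A.2 and shARID1B.2, and 15 and 11 in shARID1A.4 and shARID1B.3. It passed the filter through conditions in which it was high, so its calls here rest on libraries that admitted it. TNC differed the other way from SPARC, by -1.13, -1.72 and 0.54. VCAN differed by 0.40, 0.16 (0.27 with scaling to total reads) and 1.05, and THBS1 by -0.48, 0.72 and 1.86. A difference between labels is therefore a mean over conditions that were themselves apart, and it stands beside these within-label values.

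**Figure D3:**
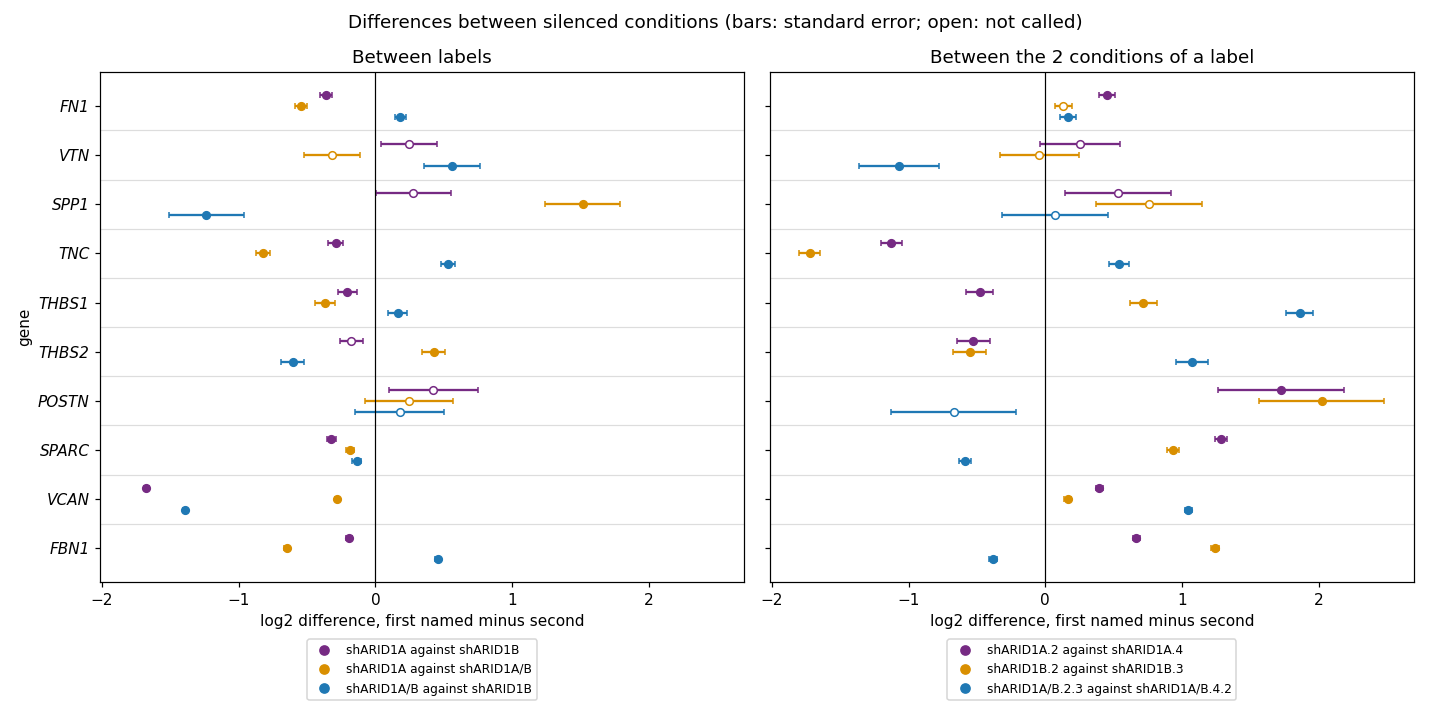
Log2 differences of each gene between labels (left) and between the 2 conditions of a label (right), first named minus second, with the standard error of the fit as bars; filled points were called at an adjusted p under 0.05 and open points were not. VCAN differs most in the comparisons with shARID1B, at -1.68 and -1.39, and SPP1 between shARID1A and shARID1A/B, at 1.52, while the largest differences of TNC (-1.72), SPARC (1.28), POSTN (2.02) and THBS1 (1.86) lie within a label. SPP1 and POSTN have few reads and passed the filter through conditions in which they were high.

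Receptors of these ligands were described through a list of 15 genes, of which 14 were tested. Against Control, 2 were higher and 11 lower in shARID1A.2, 1 and 10 in shARID1A.4, 2 and 10 in shARID1B.2, 2 and 10 in shARID1B.3, 4 and 8 in shARID1A/B.2.3 and 2 and 11 in shARID1A/B.4.2. Of all genes, 31.6% to 37.9% were higher and 32.0% to 38.2% lower in these comparisons. The 3 genes called most often with the largest mean change were ITGB3, ITGA9 and ITGAV, all lower in all 6 comparisons. ITGAV, the alpha-v chain that pairs with several beta chains to bind vitronectin and osteopontin, had a mean value of 9385 in Control and 1861 to 4146 in the silenced conditions, with log2 changes of -1.18 to -2.34. ITGB3, its partner in the vitronectin receptor, had a mean of 168 in Control and 18.6 to 93.7 elsewhere. ITGA9, the chain that binds tenascin C and osteopontin, had a mean of 824 in Control and 124 to 329 elsewhere. Other receptors went both ways, here named after their values were seen. ITGB5 and CD44 were each called higher in 4 comparisons and lower in 2. ITGA5 was called lower in 4 comparisons and higher in shARID1A/B.2.3, with a log2 change of 1.36.

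Relatives of the members were described through a list of 22 genes, of which 16 were tested, and these showed no common direction. Higher and lower calls numbered 6 and 6 in shARID1A.2, 4 and 8 in shARID1A.4, 8 and 5 in shARID1B.2, 3 and 7 in shARID1B.3, 5 and 7 in shARID1A/B.2.3 and 4 and 10 in shARID1A/B.4.2, beside the same shares of all genes. The 3 with the most calls and the largest mean change were FBN3, DMP1 and SPOCK2. FBN3 and DMP1, a fibrillin and a phosphoprotein of the osteopontin family, were lower in all 6, from Control means of 14.5 and 13.2. Their means in the silenced conditions were 0.66 to 6.17 and 1.05 to 5.81. Both were low genes that were highest in Control, so they passed the filter mainly through Control. Their calls thus rest on the condition that admitted them. SPOCK2, a proteoglycan related to SPARC, was higher in all 6, with a mean of 56.4 in Control, 720 in shARID1A.2 and 461 in shARID1A.4, and log2 changes of 0.65 to 3.67. SPOCK2 thus rose where SPARC itself went either way.

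Other adhesive matrix genes, a list of 25 with 20 tested, were mostly lower. Higher and lower calls numbered 2 and 17 in shARID1A.2, 3 and 16 in shARID1A.4, 4 and 10 in shARID1B.2, 1 and 15 in shARID1B.3, 3 and 13 in shARID1A/B.2.3 and 1 and 16 in shARID1A/B.4.2, again beside 31.6% to 37.9% higher and 32.0% to 38.2% lower of all genes. The median log2 change was -0.89, -1.08, -0.35, -0.62, -0.46 and -0.52, against the 0.01 to 0.02 of all genes. In shARID1B.2 the split became 8 higher and 8 lower with scaling to total reads. CCN2, NID1 and CCN1 led the list and were lower in all 6 comparisons. NID1, nidogen, which links laminin to collagen IV in basement membranes, had a mean of 3201 in Control and 701 to 1871 elsewhere. CCN2 and CCN1, integrin-binding matricellular proteins, had means of 282 and 666 in Control, with the lowest means of 29.4 and 80.7 in shARID1A.4.

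Markers of other cell types were checked because matrix genes are abundant in stroma. SOX10, a defining gene of Schwann cells, was at 0 in all libraries. Of 5 blood, vessel and epithelial markers, 3 reached a value of 10 in a library, with sums of 493 to 511 in Control and 136 to 448 in the silenced conditions. The sum hides opposite members, here named after their values were seen. PTPRC, the pan-leukocyte gene, had a mean of 411 in Control and 60.1 to 303 elsewhere and was called lower in all 6 comparisons, as VCAN was. EPCAM, an epithelial adhesion gene, had a mean of 66.2 in Control and 60.5 to 215 elsewhere and was called higher in 5. Their part in the results was not tested. All 6 fibroblast markers (DCN, LUM, PDGFRA, PDGFRB, COL1A1 and COL3A1) were expressed, with sums of 36891 to 37406 in Control. Their sums were 13456 to 14770 in shARID1A.2, 13729 to 14032 in shARID1A.4, 15258 to 16017 in shARID1A/B.4.2, 20202 to 20593 in shARID1A/B.2.3, 29503 to 31207 in shARID1B.3 and 33736 to 35232 in shARID1B.2. These sums were lowest in the 3 conditions in which VCAN was lowest. Single markers differed, with LUM lower in all 6 comparisons and DCN higher in 3 and lower in 3. The list consists of matrix genes and their companions, which a cell of mesenchymal state also expresses, and its part in the falls of VCAN was not tested. In bulk libraries, fewer cells of a kind and less RNA per cell cannot be told apart.

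For each member the genes with the most similar profile were found by Pearson's r of log2 values over the 21 libraries, which share their conditions, so no p is given. VCAN was closest to AEBP1 (r = 0.99), ASAP2 (0.99) and CPXM1 (0.98), and AEBP1 encodes another collagen-binding matrix protein. SPARC was closest to RGL1 (0.99), YPEL2 (0.97) and CCNI (0.97), FBN1 to IGFBP4 (0.98), LRRN3 (0.98) and ANKRD6 (0.96), and TNC to CLCN5 (0.98), RPS6KA3 (0.97) and TUBB2A (0.97). No member of the group was among the 3 nearest genes of another. FN1 was closest to IL4R (0.95), FLT1 (0.94) and MRPL35 (0.94), THBS1 to CAPN2 (0.97), RTF1 (0.96) and CXCR4 (0.95), and THBS2 to SLC6A15 (0.94), DCUN1D4 (0.94) and NR0B1 (0.93). The low genes had weaker neighbours. SPP1 was closest to RPS25 (0.90), NOP53 (0.89) and RPS14 (0.89), POSTN to PTOV1 (0.88), TBC1D3L (0.87) and AL050341.2 (0.87), and VTN to HIGD1C (0.82), GAL3ST2 (0.82) and TSPAN12 (0.78).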

How the data were processed

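The authors deposited 1 signal per gene and library, the reads of a gene divided by 1 size factor per library (0.841 to 1.295). The submitters' processing notes name STAR 2.5.3a, RSEM 1.3.0, DESeq2 1.26.0 and GRCh38, without their roles or order. Tables of the authors' own comparisons, with fold changes and p-values, were not used. Whole reads were recovered for 100% of values (tolerance 0.05 read, largest deviation 0.0066) and gave 27954334 to 41077638 reads per library. Libraries were grouped by their labels. A filter of edgeR on low reads (filterByExpr) was applied to these reads, and log2(value + 1) was tested with limma with a trend over all 21 libraries in 7 conditions, with Benjamini-Hochberg adjustment over the 18584 genes kept. Such fold changes understate the change of low genes.

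The members, gene lists and tests were chosen with earlier results of these data known. Named genes are the 10 members, the 2 targets, the 3 genes of each of 3 lists called in most of the 6 comparisons with Control (ties by mean absolute change), and the 3 genes nearest to each member by Pearson's r. Lists cover receptors, relatives, other adhesive genes, and markers of neuroblastoma, fibroblasts, and blood, vessel and epithelial cells. Some marker genes are not reported here and are left out of the marker sums, and for Schwann cells no sum is given.

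Alternatives were edgeR's quasi-likelihood test with TMM and DESeq2's Wald test on the reads, scaling to total reads or the upper quartile, pseudocounts of 0.5 and 5, no filter (35892 genes), at least 10 reads in every library (14637 genes), only the libraries compared, a replicate block, and each library left out. On the recovered reads edgeR called 11887 to 14188 genes against Control. Replicate libraries were compared in 21 pairs, each of which exceeded sampling noise (chi-square per degree of freedom 1.55 to 4.26). The tests were tried on simulated reads with known changes. Positions and exon lengths are from GENCODE release 29, matched without the version for all members but THBS2. Python 3.11.15, numpy 2.4.6, pandas 2.3.3, scipy 1.17.1, matplotlib 3.10.9, R 4.3.3, limma 3.58.1, edgeR 4.0.16 and DESeq2 1.42.0 were used.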

Additional observations from a re-analysis of the deposited data

Results flagged for a closer look

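The 2 conditions of a label share Control and intended targets, and their changes were compared by the limma contrast between them; 23 of the 30 member contrasts passed at an adjusted p under 0.05 and are given as log2 differences, first condition minus second. The share of all genes called in these contrasts was 75.8%, 66.0% and 74.9%. Between shARID1A.2 and shARID1A.4, POSTN differed by 1.73, SPARC by 1.28, FBN1 by 0.67, FN1 by 0.45 and VCAN by 0.40, and TNC differed by -1.13, THBS2 by -0.53 and THBS1 by -0.48. POSTN held 56 and 15 reads in these conditions and passed the filter through conditions in which it was high. SPARC moved in opposite directions against Control in this pair.

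Between shARID1B.2 and shARID1B.3, POSTN differed by 2.02, FBN1 by 1.24, SPARC by 0.93, THBS1 by 0.72 and VCAN by 0.16, and TNC differed by -1.72 and THBS2 by -0.55. POSTN held 47 and 11 reads in these conditions, with the same limit from the filter. SPARC and FBN1 rose against Control in the first of these conditions and fell in the second.

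Between shARID1A/B.2.3 and shARID1A/B.4.2, THBS1 differed by 1.86, THBS2 by 1.07, VCAN by 1.05, TNC by 0.54 and FN1 by 0.17, and VTN differed by -1.07, SPARC by -0.59 and FBN1 by -0.38. The difference of FN1 was 0.01 with scaling to total reads and 0.08 with upper-quartile scaling and was then not called.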

How the results depend on the processing

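The count of members called stayed within 1.5 times its value in all 12 comparisons under every alternative, and no member changed direction in a comparison in which it was called. The members called against Control in shARID1A.2 numbered 7 in place of 8 with either scaling, and 6 of the 8 tested with at least 10 reads in every library, where SPP1 and POSTN were not tested. With that last filter 12077 of 14637 genes were called in shARID1A.2. Calls lost against Control are given in the report beside THBS2, FBN1, POSTN and VTN; leaving out a library moved the members called in shARID1A.4 between 7 and 8, in shARID1A/B.4.2 between 9 and 10 and in shARID1A/B against shARID1B between 7 and 9. Between conditions, FN1 in shARID1B.2 against shARID1B.3 was 0.13 and not called (adjusted p = 0.0511, limma) and was called with 5 settings other than the block, at 0.13 to 0.24, and without shARID1B.2 library 1 or shARID1B.3 library 2. SPP1 in the same contrast was called with a pseudocount of 5, at 0.58, and without shARID1B.3 library 3, at 1.08. FN1 in shARID1A/B.2.3 against shARID1A/B.4.2 was lost with both scalings and without shARID1A/B.2.3 library 2 (0.10), shARID1A/B.4.2 library 1 (0.13) or shARID1A/B.4.2 library 3 (0.15). THBS2 in shARID1A against shARID1B was called with edgeR at -0.19, with only the libraries compared, and without shARID1B.2 library 3 or shARID1B.3 library 1. THBS1 in shARID1A/B against shARID1B was also lost with no filter (adjusted p = 0.0821, limma) and with only the libraries compared (adjusted p = 0.0804, limma). The cause of these changes was not tested. Over all genes tested, same-numbered libraries of different conditions did not deviate together (correlations of -0.088 to 0.053). These correlations weigh every gene alike, low genes included, and cannot decide the matter for single genes. FN1 was highest in library 2 of all 7 conditions, and SPARC in library 2 of all 6 silenced conditions but not of Control. Whether the numbers pair the libraries was not tested for single genes. With the replicate block the members called stayed at 8 in shARID1A.2, and FN1 in shARID1B.2 against shARID1B.3 was called (0.13, adjusted p = 0.00439, limma); no other member call changed with the block. Read depth limits SPP1 and POSTN, with 4 and 11 reads over the Control libraries.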
